A study of Rattus norvegicus with 9 samples.

Results

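The proteasome genes of the rat kidney were taken from whole-kidney arrays as every gene probe whose name in the array files starts with Psma, Psmb, Psmc, Psmd, Psme, Psmf or Psmg followed by a digit. This gave 50 gene names of 26115, read by 57 of 30367 gene probes and 163 of 58717 gene spots. Of these, 48 names and 52 probes passed the filter on dim probes, among 13837 names and 15723 probes in all. The naming rule reads gene names alone.

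Kidneys came from Fisher F344 rats, whose age is not given in the sources used here. All had 20 min. of warm ischaemia. The NP group (5 arrays, 1 kidney each) was not perfused. The MSC group (4 arrays, 1 kidney each) was then perfused for 4 hrs at 4°C with Belzer solution (BS), a cold preservation fluid, that carried 3000000 mesenchymal stromal cells (MSC) from the bone marrow of Sprague Dawley rats transgenic for EGFP. The labels of the NP kidneys conflict, since the treatment field has them not perfused while titles and descriptions mention 4 hrs with BS alone. They are called NP here after the study's methods, so that the effect of the MSC and that of being perfused at all cannot be told apart. A further MSC array of poor quality was left out by the study.

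The proteasome is the large protease that degrades ubiquitin-tagged proteins in the cytosol and nucleus. Its barrel is made of alpha and beta rings, with the cutting sites on 3 beta subunits inside, and a regulatory cap of ATPases and other subunits binds, unfolds and feeds in the substrate. In interferon-stimulated cells and in leukocytes the 3 cutting subunits are replaced by the immunoproteasome subunits Psmb8, Psmb9 and Psmb10, which changes the peptides made for MHC class I molecules. A separate activator ring of Psme1 and Psme2 can take the place of the cap.

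Values are given as normalized log2 intensities, and differences as MSC minus NP on that scale, with ± for the standard error of a difference. Of the gene spots, 65.6% to 74.3% were well above background on each array, no spot was saturated, and 6 member spots carried an outlier flag and were dropped. The arrays lay on 2 slides, the first with NP replicates 1, 2 and 3 and MSC replicates 1 and 2, the second with the others. NP replicates 1 and 2 stood apart: 43.5% and 52.2% of all genes lay more than 0.2 from their own mean there, against 13.6% to 30.2% on the other arrays. For the 48 proteasome genes the shares were 20.8% and 29.2%, against 2.08% to 14.6%. Results are therefore also given within each slide and without these 2 arrays. Precision is limited by the number of arrays, and nothing in the labels says more about the separateness of the kidneys than the replicate numbers. In whole tissue, fewer cells of a type and less RNA per cell cannot be told apart.

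The proteasome genes were close to level between MSC and NP kidneys. Of the 48 measured, 25 had a higher and 23 a lower mean in MSC samples, with a median log2 fold change of 0.0049 and a range of -0.16 to 0.37, that is, fold changes of 0.895 to 1.30. Of all genes 48.5% were higher, with a median of -0.0059. No member met both limits set on a call, 0.05 for the FDR in limma and 1.5 for the fold change, and neither did any other gene in either direction (0% of 13837). The lowest FDR of a member was 0.387. At an unadjusted p under 0.05, 4 members (8.33%) were higher and 0 were lower, where 6.57% of all genes were higher and 5.1% lower. In 2 members every MSC sample lay above every NP sample, and in 0 members below, against 3.17% and 2.12% of all genes. Within 1.2-fold lay 46 of 48 members (95.8%) and 82.5% of all genes, a description that takes no account of how bright the spots were.

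The 4 members with an unadjusted p under 0.05 were Psma3l, Psmb8, Psmd14 and Psmd13, from the barrel, the immunoproteasome and the cap. By median scaling of the arrays in place of cyclic loess the number was 0, where 2.03% of all genes were higher at that p. Without NP replicates 1 and 2 it was 1 higher and 1 lower, against 6.35% and 7.47% of all genes. Within the slides, 18 of 48 members were higher on both and 8 lower on both, or 37.5% and 16.7%, against 30.4% and 34.1% of all genes. In total 54.2% kept their sign from slide to slide, against 64.5% of all genes.

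**Figure D1:**
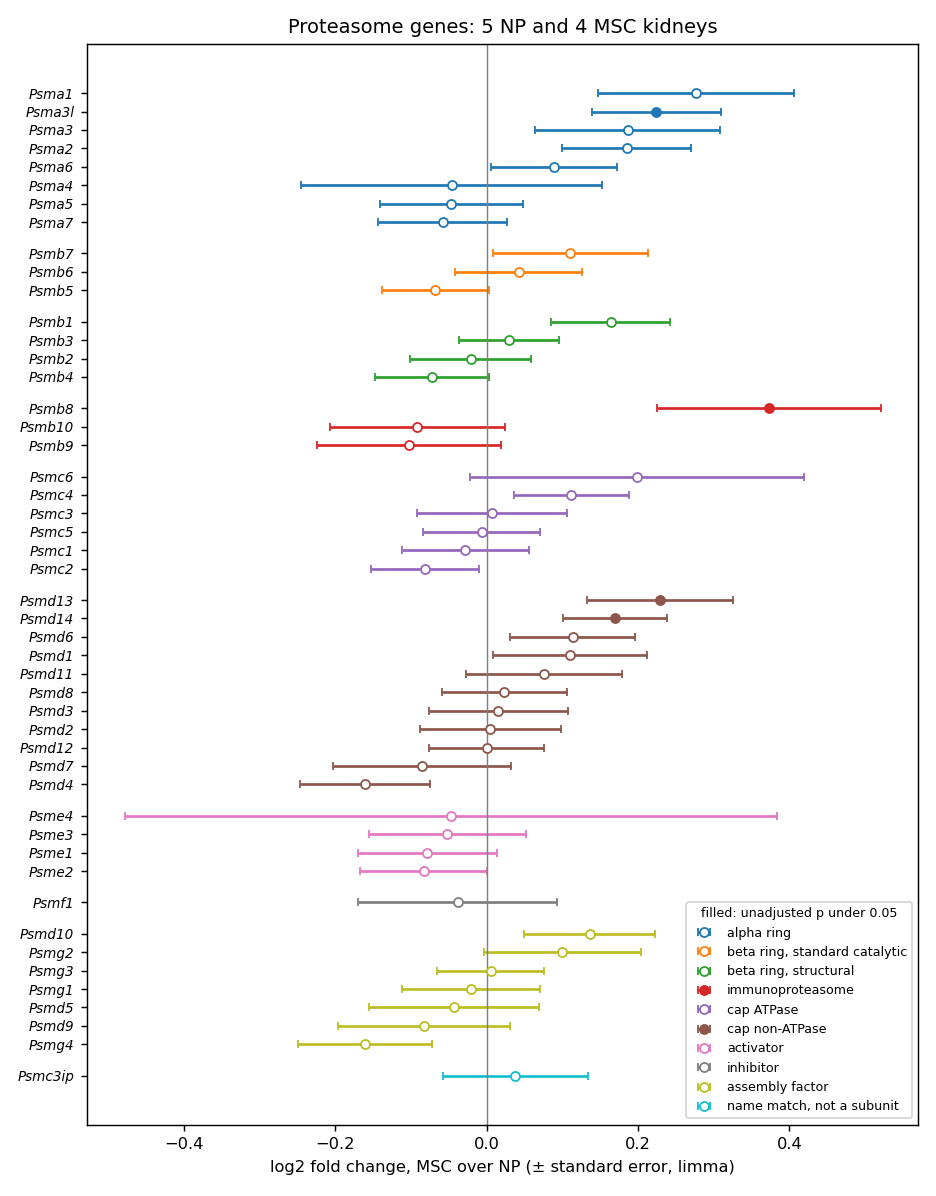
Log2 fold change of MSC over NP (x axis, with the standard error from limma) for each of the 48 measured proteasome genes (y axis), grouped and coloured by role, with filled points where the unadjusted p was under 0.05. Psmb8 is the farthest from 0 at 0.37, and all other points lie between -0.16 and 0.28.

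The alpha ring forms the outer gate of the barrel. Of its 8 measured names 5 were higher and 3 lower, with a median log2 fold change of 0.14. Psma3l and Psma3 are 2 names for what the current RefSeq table holds as 1 gene, and the files place their probes close together on chromosome 6. The Psma3l probe read 14.73, 14.95, 14.94, 15.02 and 14.92 in the NP samples and 15.02, 15.13, 15.12 and 15.27 in the MSC samples. The lowest MSC value was just above the highest NP value. The log2 fold change was 0.22 ± 0.09 (unadjusted p = 0.0258, FDR = 0.387 in limma), with 0.21 on the first slide and 0.22 on the second. The Psma3 probe gave 0.19 with overlapping groups (FDR = 0.569 in limma), or 0.11 without NP replicate 3. Psma1 stood at 0.28 and Psma2 at 0.18 (FDR = 0.440 and 0.437 in limma). The Psma1 value fell to 0.18 without NP replicate 2 alone and to 0.17 without NP replicates 1 and 2, and was 0.11 on the second slide. Psma4, Psma5 and Psma7 lay between -0.06 and -0.05 and Psma6 at 0.09. Psma4 was at -0.19 without NP replicate 1 and at 0.10 without NP replicate 2, and Psma5 at 0.01 without NP replicate 3. Psma8, the alpha subunit of the testis, was read by 3 probes, of which none was well above background on more than 1 array, and has no fold change here.

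The 4 other measured beta subunits, which the immunoproteasome keeps, ranged from -0.07 (Psmb4) to 0.16 (Psmb1). Psmb1 read 14.20, 14.01, 14.27, 14.16 and 14.18 in the NP samples and 14.29, 14.37, 14.25 and 14.40 in the MSC samples. MSC replicate 3 lay just below NP replicate 3 and the other 3 MSC samples lay above all NP samples. The log2 fold change of 0.16 had an unadjusted p of 0.0632 (FDR = 0.451 in limma). Psmb11, the beta subunit of the thymic cortex, did not pass the filter. One of its 2 probes was well above background on 5 of 9 arrays and the other on 0.

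The beta subunits with the cutting sites were compared as pairs, each immunoproteasome subunit with the standard subunit it replaces: Psmb8 with Psmb5 (chymotrypsin-like), Psmb9 with Psmb6 (caspase-like) and Psmb10 with Psmb7 (trypsin-like). The probes of 5 of these 6 subunits are printed 5′ to 3′ as the array files give them, for Psmb8 on rn4 chr20:4787980-4788039 (minus strand, from base 381 of the transcript), for Psmb9 on chr20:4806341-4806400 (plus, base 645), for Psmb5 on chr15:32690134-32690193 (minus, base 517), for Psmb6 on chr10:57371368-57371427 (plus, base 241) and for Psmb7 on chr3:18413231-18433105 (minus, base 459). The Psmb7 span is far longer than the 60 bases of the probe, which therefore lies across an exon junction. The files do not mark exons or UTRs. The Psmb10 probe, on chr19:35777711-35777770 (minus, base 938), is given by its position only.
Psmb8: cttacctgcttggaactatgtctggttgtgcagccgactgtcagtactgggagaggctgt
Psmb9: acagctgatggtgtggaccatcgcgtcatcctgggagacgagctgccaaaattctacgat
Psmb5: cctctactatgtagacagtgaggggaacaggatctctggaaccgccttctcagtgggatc
Psmb6: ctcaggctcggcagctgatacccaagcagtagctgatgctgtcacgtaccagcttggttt
Psmb7: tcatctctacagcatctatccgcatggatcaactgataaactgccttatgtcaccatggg

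The means of the immunoproteasome subunits differed in direction. Psmb8 had the highest log2 fold change of all members, while Psmb9 and Psmb10 were slightly lower in MSC samples. Psmb8 read 11.03, 10.53, 10.48, 10.91 and 11.07 in the NP samples and 11.16, 10.97, 11.39 and 11.19 in the MSC samples. NP replicates 2 and 3 were the lowest, 3 MSC samples lay above all NP samples, and MSC replicate 2 lay within the NP range. The log2 fold change was 0.37 ± 0.15 (1.30-fold, unadjusted p = 0.0300, FDR = 0.391 in limma). It was 0.35 with the slide as a block, 0.38 on the first slide and 0.30 on the second, and 0.36 without NP replicates 1 and 2.

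Psmb9 read 12.30, 12.59, 12.30, 12.61 and 12.55 in the NP samples and 12.33, 12.10, 12.63 and 12.40 in the MSC samples. MSC replicate 2 lay below all NP samples, MSC replicate 3 just above them and the other MSC samples within their range. The difference was -0.10 ± 0.12 (FDR = 0.768 in limma), and -0.19 to -0.01 with 1 array left out, the ends without MSC replicates 3 and 2. Psmb10 read 13.79, 14.06, 13.62, 13.54 and 13.66 in the NP samples and 13.67, 13.51, 13.60 and 13.80 in the MSC samples. NP replicate 2 was the highest of all 9 samples. The log2 fold change of -0.09 ± 0.12 (FDR = 0.784 in limma) was -0.24 on the first slide, 0.10 on the second and 0.04 without NP replicates 1 and 2.

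The group means of the standard subunits differed by at most 0.11. Psmb5 read 15.58, 15.49, 15.61, 15.61 and 15.48 in the NP samples and 15.52, 15.47, 15.42 and 15.53 in the MSC samples, a log2 fold change of -0.07 ± 0.07 (FDR = 0.731 in limma). Psmb6 read 14.16, 13.87, 14.18, 14.01 and 14.04 in the NP samples and 14.16, 14.12, 14.02 and 14.08 in the MSC samples, with a log2 fold change of 0.04 (FDR = 0.875 in limma). Psmb7 read 14.26, 13.90, 14.21, 14.25 and 14.18 in the NP samples and 14.44, 14.28, 14.28 and 14.09 in the MSC samples, with a log2 fold change of 0.11 (FDR = 0.692 in limma). In Psmb7 the low value of NP replicate 2 set the lower end of the NP range, and the log2 fold change was 0.24 on the first slide and -0.03 on the second.

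**Figure D2:**
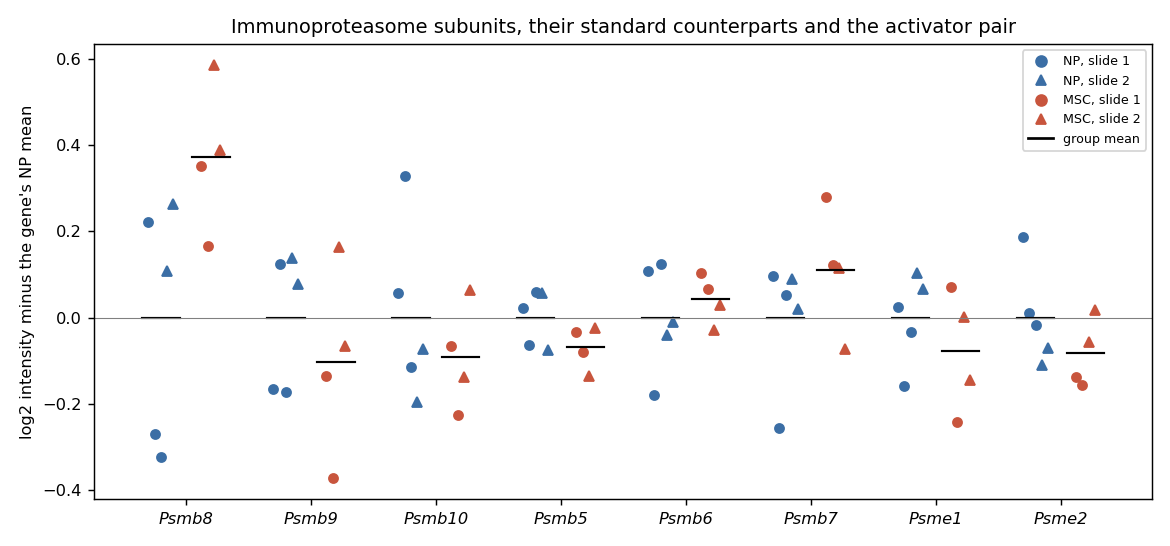
Log2 intensity of each array minus the gene's NP mean (y axis) for Psmb8, Psmb9, Psmb10, their standard counterparts Psmb5, Psmb6 and Psmb7, and the activator pair Psme1 and Psme2 (x axis), with circles for slide 1, triangles for slide 2 and bars for group means. Psmb8 is the one gene whose MSC bar stands clear of 0, at 0.37, and its MSC replicate 2 still lies within the NP samples.

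Within each array, the log2 difference of the 2 probes of a pair leaves out anything that scales the whole array, and was set to 0 at the NP mean. Psmb8 minus Psmb5 was 0.20, -0.21, -0.38, 0.05 and 0.34 in the NP samples and 0.38, 0.24, 0.72 and 0.41 in the MSC samples. It was higher by 0.44 in MSC samples (SD 0.29 over 5 NP and 0.20 over 4 MSC samples, exact two-sided permutation test, p = 0.0397, where 0.00794 is the smallest possible). After Benjamini-Hochberg adjustment over the 3 pairs the exact p was 0.119. The change was 0.44 on the first slide and 0.37 on the second, and 0.41 with the slide as a block (exact p = 0.05). Of the 9 fits that left out 1 array, 8 gave a p above 0.05, with a change of 0.34 to 0.53 throughout. Psmb9 minus Psmb6 changed by -0.14 (exact p = 0.437), and by -0.26 to -0.05 with 1 array left out. Psmb10 minus Psmb7 changed by -0.20 (exact p = 0.413), by -0.31 to -0.06 with 1 array left out, and by -0.47 on the first slide and 0.13 on the second.

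**Figure D3:**
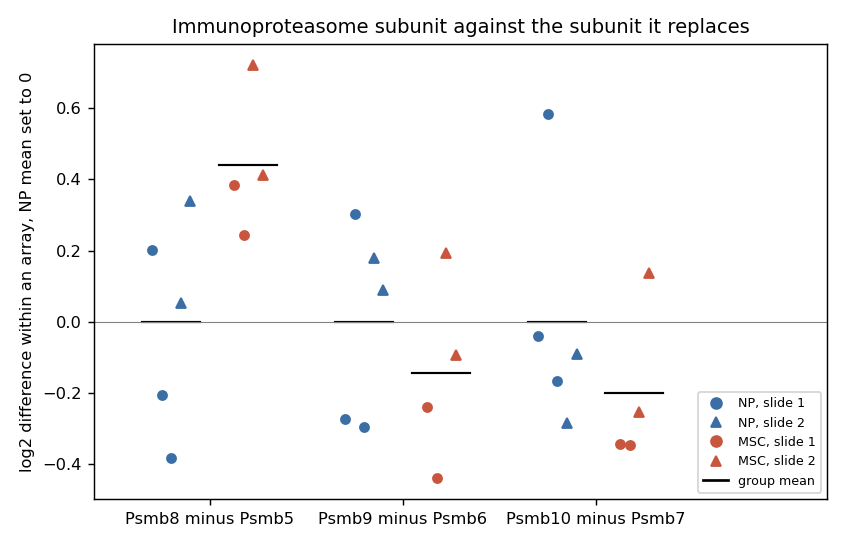
Log2 difference within each array between an immunoproteasome subunit and the standard subunit it replaces (y axis, NP mean set to 0) for the 3 pairs (x axis), with circles for slide 1, triangles for slide 2 and bars for group means. For Psmb8 minus Psmb5 all 4 MSC samples lie above 0 and 3 lie above every NP sample, while MSC replicate 2 lies within the NP range. In the other pairs the groups overlap as well.

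The regulatory cap was likewise near level. Of 17 measured cap genes 11 were higher and 6 lower in MSC samples, with a median log2 fold change of 0.02. The 6 ATPases that unfold the substrate, Psmc1 to Psmc6, had a median of 0.00037, between -0.08 (Psmc2) and 0.20 (Psmc6). Psmc4 had the smallest p among them: it read 12.93, 12.86, 13.08, 13.10 and 13.01 in the NP samples and 13.09, 13.07, 13.09 and 13.17 in the MSC samples, a log2 fold change of 0.11 (FDR = 0.583 in limma). The groups overlapped in their upper range. In Psmc6 NP replicate 1 read 11.31, far below the 12.14 to 12.55 of all other arrays. Without it the Psmc6 log2 fold change was -0.0030, and it was -0.05 on the second slide.

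Among the 11 other cap subunits 8 were higher, and Psmd14 and Psmd13 had an unadjusted p under 0.05. Psmd14 is the deubiquitinase that removes the ubiquitin chain from the substrate at the mouth of the barrel. Its probe lies on rn4 chr3:43696292-43699023 (minus strand, from base 472 of the transcript), again across an exon junction. Psmd13 is a scaffold subunit of the cap lid, read on chr1:201055782-201055841 (plus strand, base 879). Both sequences are shown because these 2 cap genes had the smallest p-values of the cap.
Psmd14: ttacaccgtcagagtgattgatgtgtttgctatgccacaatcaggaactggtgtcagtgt
Psmd13: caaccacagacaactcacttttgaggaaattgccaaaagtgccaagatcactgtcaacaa

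Psmd14 read 11.97, 12.01, 12.12, 11.99 and 12.05 in the NP samples and 12.25, 12.22, 12.17 and 12.15 in the MSC samples. All 4 MSC samples lay above all 5 NP samples, on either slide. The log2 fold change was 0.17 ± 0.07 (1.12-fold, unadjusted p = 0.0329, FDR = 0.395 in limma), with 0.20 on the first slide, 0.14 on the second and 0.14 without NP replicates 1 and 2. Psmd13 read 12.82, 12.55, 12.90, 12.72 and 12.81 in the NP samples and 13.12, 12.98, 12.81 and 13.04 in the MSC samples. MSC replicate 3 lay within the NP range and the other MSC samples above it. The log2 fold change was 0.23 ± 0.10 (unadjusted p = 0.0394, FDR = 0.408 in limma), with 0.29 on the first slide and 0.16 on the second. Psmd4, a ubiquitin receptor, had the lowest value of the cap at -0.16 (unadjusted p = 0.0907, FDR = 0.494 in limma), and at -0.23 with an unadjusted p of 0.0226 without NP replicates 1 and 2.

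**Figure D4:**
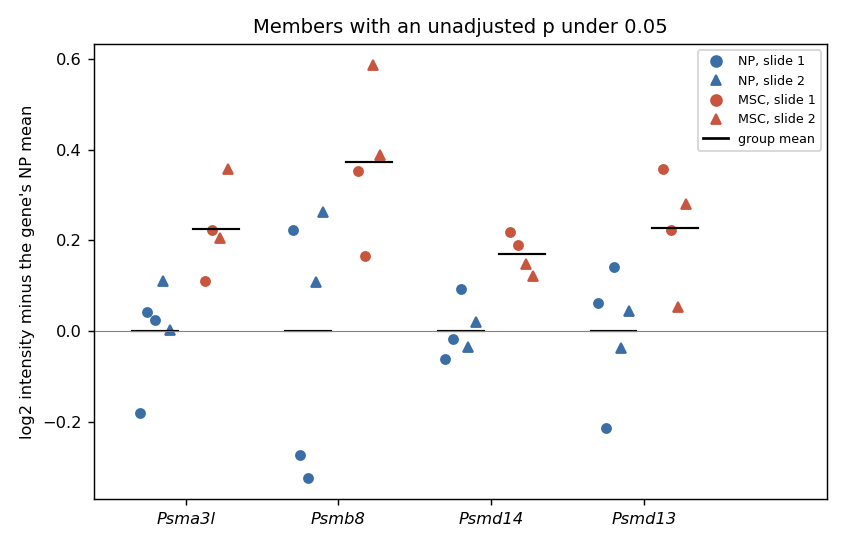
Log2 intensity of each array minus the gene's NP mean (y axis) for the 4 members with an unadjusted p under 0.05 (x axis), with circles for slide 1, triangles for slide 2 and bars for group means. In Psma3l and Psmd14 no MSC sample overlaps an NP sample, whereas in Psmb8 and Psmd13 1 MSC sample each lies within the NP range.

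The activators had slightly lower means in MSC samples. This held for each of the 4, Psme1 to Psme4, with log2 fold changes of -0.08 to -0.05 and FDRs of 0.721 or more in limma, though not for the second probe of Psme4, at 0.0060. On the first slide alone Psme3 was at 0.02 and Psme4 at 0.08. Psme1 read 16.44, 16.26, 16.39, 16.52 and 16.49 in the NP samples and 16.49, 16.18, 16.42 and 16.28 in the MSC samples. Psme2 read 15.91, 15.73, 15.70, 15.61 and 15.65 in the NP samples and 15.58, 15.56, 15.66 and 15.74 in the MSC samples. The groups overlapped in both, and Psme2 was at -0.21 on the first slide and 0.07 on the second. The Psme2 value rests on 10 spots of 1 probe per array, whose SD within an array was at most 0.20, for a standard error of the array mean of at most 0.06. The SD between NP samples was 0.11.

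Psmf1, an inhibitor that binds the ends of the barrel, was read by 2 probes that disagreed. The probe used, the more variable of the pair, read 14.02, 13.55, 13.98, 13.73 and 13.84 in the NP samples and 14.03, 13.74, 13.87 and 13.50 in the MSC samples, a log2 fold change of -0.04 (FDR = 0.933 in limma). The other probe read 11.91 to 12.20 in the NP samples and 12.25 to 12.38 in the MSC samples, without overlap. In the fit over all 15723 probes its log2 fold change was 0.27 ± 0.08 (unadjusted p = 0.00577, FDR = 0.333 in limma). It was the smallest p of the 52 member probes. This second probe lies on rn4 chr3:142069091-142069150 (minus strand, from base 571 of the transcript), and the first starts at base 1304. Its sequence is given because the direction of Psmf1 depends on which probe is read.
Psmf1: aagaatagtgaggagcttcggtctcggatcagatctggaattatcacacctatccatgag

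Psme4, Psmd9 and Psmg4 also had 2 probes each that passed the filter. Psme4, an activator ring of a single chain, was the most variable member by far, with a pooled SD within groups of 0.76, which is higher than in 98.7% of all genes. Its probe read 10.87 in NP replicate 1 and 13.63 in NP replicate 2, against 11.95 to 12.59 on the other 7 arrays. The other Psme4 probe, with 10 spots, read 10.92 and 11.79 on the same 2 arrays. It too was lowest in NP replicate 1 and highest in NP replicate 2, over a narrower range. For the Psme4 probe used, the log2 fold change was -0.05 with all arrays, -0.40 without NP replicate 1 and 0.29 without NP replicate 2. Psmd9 gave -0.08 with the probe used and 0.13 with the other, and Psmg4 -0.16 and -0.12. The Psmd9 probe used gave -0.13 on the first slide, 0.02 on the second and 0.05 without NP replicates 1 and 2.

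**Figure D5:**
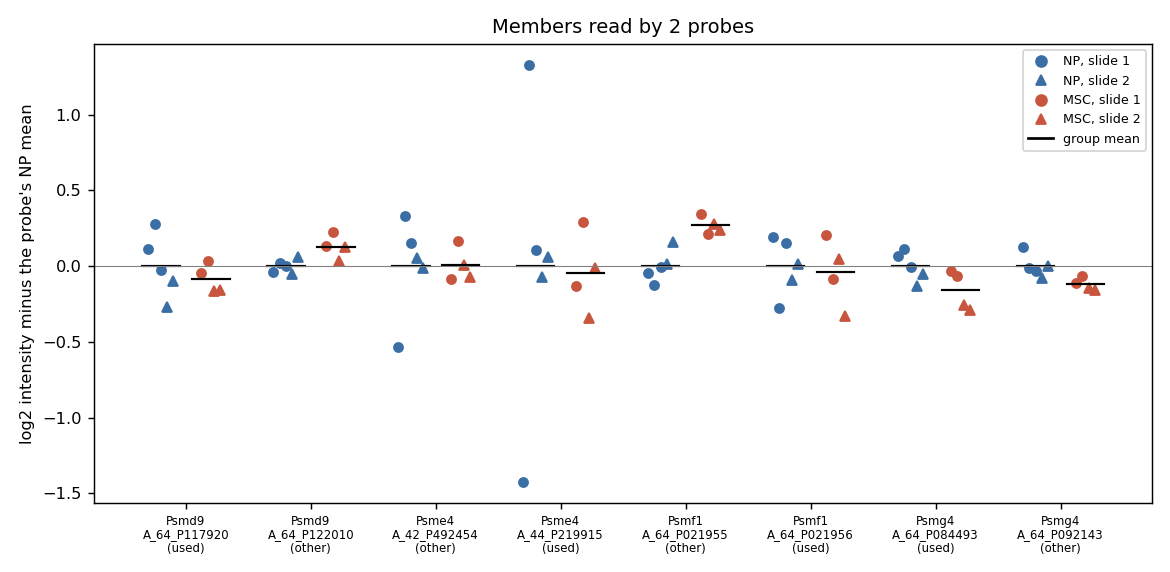
Log2 intensity of each array minus the probe's NP mean (y axis) for the 8 probes of the 4 members read by 2 probes (x axis), with circles for slide 1, triangles for slide 2 and bars for group means. The 2 Psmf1 probes differ in direction, at 0.27 and -0.04, and the Psme4 probes place NP replicates 1 and 2 at opposite ends.

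The 7 measured assembly factors, chaperones that build the barrel (Psmg1 to Psmg4) or the base of the cap (Psmd5, Psmd9, Psmd10), lay between -0.16 and 0.14, with 3 higher and 4 lower. Psmg4 had the smallest p. It read 12.63, 12.68, 12.56, 12.43 and 12.51 in the NP samples and 12.53, 12.50, 12.30 and 12.27 in the MSC samples, a log2 fold change of -0.16 (unadjusted p = 0.100, FDR = 0.505 in limma). The lower end was formed by MSC replicates 3 and 4 on the second slide, on which NP replicate 4 was also the lowest NP sample. Psmc3ip fits the naming rule but encodes a partner of meiotic recombination, not a subunit. It read 10.36, 10.18, 10.18, 10.44 and 10.32 in the NP samples and 10.14, 10.30, 10.42 and 10.47 in the MSC samples, a log2 fold change of 0.04 (FDR = 0.905 in limma).

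The members varied little between kidneys of one group. The pooled SD within groups had a median of 0.12 over the 48 members and 0.18 over all genes. This comparison takes no account of how bright the spots were. The highest values after Psme4 were 0.38 in Psmc6 and 0.34 in Psma4, both of which were lowest in NP replicate 1. The 7 member probes with 10 spots per array had a median spot SD within an array of 0.09 to 0.13.

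Genes that work with the proteasome were described as lists of known roles. Of 24 measured genes of ubiquitin and its shuttles, 14 were higher and 10 lower, with 1 gene (4.17%) at an unadjusted p under 0.05 in each direction, where 6.57% of all genes were higher and 5.1% lower at that p. Ubqln1, which carries ubiquitinated proteins to the cap, had a log2 fold change of 0.21 (unadjusted p = 0.0265, FDR = 0.390 in limma), and Nploc4, a cofactor of the unfoldase Vcp, one of -0.17 (unadjusted p = 0.0347, FDR = 0.399 in limma). Of 9 measured partners of the proteasome 6 were higher. Adrm1, a ubiquitin receptor of the cap whose name the naming rule does not take, stood at -0.29 (unadjusted p = 0.0312, FDR = 0.394 in limma), and Usp14, a deubiquitinase of the cap, at 0.16 (FDR = 0.582 in limma), or 0.10 without NP replicate 2. Nfe2l1 is the transcription factor that raises proteasome genes when the protease is short. Its list held Nfe2l1 itself, its relative Nfe2l2 and genes that control or partner them. Of the 9 measured, 4 were higher and 5 lower, with Nfe2l1 at -0.14 (FDR = 0.606 in limma). Syvn1, a ubiquitin ligase of the endoplasmic reticulum, stood at -0.21 (unadjusted p = 0.0285, FDR = 0.390 in limma) and Ddi2, the protease that activates Nfe2l1, at -0.55 (unadjusted p = 0.0914, FDR = 0.494 in limma). The Ddi2 value was -0.31 without NP replicate 2, which was the highest of all samples, -0.27 without NP replicates 1 and 2 and -0.31 on the second slide.

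The interferon and MHC class I list bears on the immunoproteasome. Of its 31 genes 24 passed the filter, and 14 were higher and 10 lower, with a median log2 fold change of 0.03, 2 genes (8.33%, against 6.57% of all genes) at an unadjusted p under 0.05 in the upper direction and 0 in the lower (5.1% of all genes). Tap2, a subunit of the peptide transporter that loads class I molecules and a neighbour of Psmb8 in the MHC region, read 11.31, 11.76, 10.46, 11.18 and 11.48 in the NP samples and 11.97, 11.94, 12.07 and 11.93 in the MSC samples. Every MSC sample lay above every NP sample, and the log2 fold change was 0.74 ± 0.22 (1.67-fold, unadjusted p = 0.00695, FDR = 0.333 in limma). Erap1, the aminopeptidase that trims class I peptides, had a log2 fold change of 0.41 ± 0.08 (unadjusted p = 0.000537, FDR = 0.333 in limma), without overlap on either slide. Its values were 12.09 to 12.26 in the NP samples and 12.51 to 12.77 in the MSC samples. Tap1, the partner of Tap2, stood at 0.22 and B2m, the class I light chain, at 0.07 (FDR = 0.486 and 0.733 in limma). Ifngr2, a subunit of the interferon gamma receptor, stood at -0.35 (unadjusted p = 0.0509, FDR = 0.427 in limma), or at -0.23 without NP replicates 1 and 2. Ifng, the inducer of the immunoproteasome, did not pass the filter and was well above background on 0 arrays.

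Interferon acts on many promoters through a repeat, GAAA, any 2 bases and GAAA again, and this was searched on both strands of the RefSeq promoters (build GRCr8, 250 bases before to 50 after the start), which held 44 of the 50 names. The repeat was found in 7 of the 44 members (15.9%) and in 3.92% of all 33469 promoters. Of these 7 members 2 were higher and 5 lower in MSC samples, and Psmb8 was the one with an unadjusted p under 0.05. The sites of the immunoproteasome subunits and of Psme2 are shown with 5 bases on either side and the repeat in capitals, each on the strand that spells it, at chr20:4657021-4657040 (plus) for Psmb8, chr19:50743351-50743370 and chr19:50743295-50743314 (both minus) for Psmb10 and chr15:33052790-33052809 (minus) for Psme2. The Psmb9 promoter window had no match.
Psmb8: gaagtGAAAGCGAAAgccac
Psmb10, farther from the start: aaggcGAAAGTGAAAgagaa
Psmb10, nearer to the start: ggggtGAAAGCGAAAgtagg
Psme2: agagtGAAAGCGAAAgctgg
The 7 members with the repeat had log2 fold changes of -0.16 (Psmg4) to 0.37 (Psmb8). The letters TGAC, any 3 bases and GC, read by Nfe2l1 and its relatives, were searched in the same way and found in 8 of 44 members (18.2%) and 12.1% of all promoters. Of these 8, 4 were higher and 4 lower, with 0 at an unadjusted p under 0.05. A match is a description of the letters and not evidence of binding.

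Markers of other cell types were measured on the same arrays. Of 26 leukocyte markers 15 passed the filter and 10 of these were higher. Their summed intensity was 161315 to 265968 in NP and 207368 to 274907 in MSC samples, and the B cell marker Ms4a1 was well above background on 0 arrays. The brightest, Cd74, read 16.07, 15.69, 15.70, 15.89 and 15.99 in the NP samples and 16.05, 15.96, 16.09 and 15.70 in the MSC samples, and the groups overlapped. RT1-Da, a class II chain with the smallest p of the list, stood at 0.35 (unadjusted p = 0.0359, FDR = 0.404 in limma). The part of leukocytes in the Psmb8 value was not tested. All 6 measured fat markers of 8 were higher (summed intensity 5506 to 12783 in NP, 6023 to 79086 in MSC). Of the 6, 2 (33.3%, against 6.57% of all genes) were higher at an unadjusted p under 0.05. The brightest fat marker, Adipoq, had a log2 fold change of 1.43 and the one with the smallest p, Cidec, of 0.36 (FDR = 0.354 and 0.333 in limma). Adipoq was at 0.92 without MSC replicate 3, and Lep was well above background on 0 arrays. Of 5 measured red cell markers of 8, 4 were lower (213909 to 403055 in NP, 28163 to 288952 in MSC). All 4 had an unadjusted p under 0.05, where 5.1% of all genes were lower at that p. Hbb-b1, the brightest, stood at -1.61 and Alas2, with the smallest p, at -1.74 (FDR = 0.395 and 0.348 in limma). MSC replicate 1 was the lowest sample for both, and without it they stood at -0.84 and -1.12, while Epb42 was well above background on 0 arrays. The 12 kidney tubule and podocyte markers all passed the filter, and 8 were higher and 4 lower. At an unadjusted p under 0.05, 4 of the 12 (33.3%, against 6.57% of all genes) were higher and 0 lower. The brightest, Umod, was at 18.25 (SD 0.32, n = 5) in NP and 18.39 (SD 0.31, n = 4) in MSC samples. Slc12a3, the salt transporter of the distal convoluted tubule, had the smallest p of that list at 0.59 (unadjusted p = 0.0176, FDR = 0.352 in limma). Of 12 stromal markers 9 passed and 7 of these were higher, with summed intensities of 36370 to 109161 in NP and 52361 to 93490 in MSC samples. Col1a2, the brightest, stood at 0.57 and Col1a1, a collagen chain like it, at 1.06 (unadjusted p = 0.0994 and 0.00447, FDR = 0.504 and 0.333 in limma). The part of these cells in the values of the proteasome genes was not tested.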

How the data were processed

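Total RNA of 9 kidneys (5 NP, 4 MSC) was labelled with Cy3 and hybridized to 1-colour Agilent rat arrays. The authors deposited the raw intensity of each spot from Agilent Feature Extraction 10.7.3.1, and a table of log2 values after the authors' cyclic loess normalization. Here the mean pixel intensity was log2 transformed and normalized by cyclic loess over all spots without background subtraction (against the deposited log2 values, r was 0.99987 to 0.99997 per array). A probe was kept where, on at least 4 arrays, a spot exceeded the 95th percentile of the negative controls, multiplied by 1.1 on the log2 scale. Flagged spots were dropped, spots of one probe averaged, and the most variable probe taken per gene. MSC and NP were compared with limma 3.58.1 (R 4.3.3) over all genes, with the Benjamini-Hochberg FDR. Calls needed both an FDR below 0.05 and a change of more than 1.5-fold. Pair differences had an exact two-sided permutation test. The limma fit alone was tested on simulated gene values, with independent noise and known changes larger than those of the members.

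Members and lists (ubiquitin, partners, Nfe2l1 control, interferon and class I, and markers of kidney, leukocytes, fat, red cells and stroma) were chosen with earlier results of these data known. Values per array are given for Psmb5 to Psmb10, Psme1, Psme2, members with an unadjusted p under 0.05 and the smallest p of each role. In the 4 lists of related genes the 2 smallest p-values are named, and of the markers the brightest and some of those not detected. Others named, such as Psmd4, Psma1, Psmc6, Psme4, Tap1, B2m, Ifngr2 and the marker with the smallest p of each list, were chosen after their values were seen. Probe positions are those of the files (rn4). Promoters are RefSeq's (GRCr8).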

Additional observations from a re-analysis of the deposited data

Results flagged for a closer look

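The highest or lowest sample of each group was set against the others by Dixon's ratio of its gap to the group's range, for the 48 members, 9 medians (of all members and of 8 roles) and the 3 pair differences in both groups. Of 120 such sets 5 passed the 95% critical value, where chance gives about 1 in 20, or 6. In the NP group, replicate 2 was far below the others in Psmb7 (ratio 0.779) and Psmd6 (0.719) and far above them in Psmb10 minus Psmb7 (0.720). Replicate 1 was far below the others in Psmd7 (0.792). With each gene set to 0 at its NP mean, the median over the immunoproteasome subunits was far lower in NP replicate 3 than in the other NP samples (0.773). With each gene set to 0 at its mean over all arrays the ratio was 0.242, under the critical value. None of the 60 sets in the MSC group passed.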

How the results depend on the processing

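In all, 27 alternatives were run, of which 9 left out 1 array each and 1, without NP replicates 1 and 2, was chosen after seeing the data, as was the slide block of the pair differences. No member was called under any of them, over FDRs of 0.198 to 1.00 for the members named by the rule. No gene was called either by most alternatives, with 2 genes higher by array weights, 4 higher on the second slide alone and 1 lower without NP replicates 1 and 2. The 4 members with an unadjusted p under 0.05 (6.57% of all genes) became 2 with the processed signal (5.71%), 1 by 75th percentile scaling (4.94%), 0 by median scaling (2.03%) and on either slide alone (3.58% and 3.61%), 5 by array weights (8.25%) and by trend and robust (6.53%), 6 with no filter (4.73%) and with the filter on well above background (6.09%), and 1 to 5 when 1 array was left out (4.89% to 7.34%). The 0 lower members (5.1% of all genes) became 1 by array weights (8.6%) and with no filter (4.05%), and 0 to 2 when 1 array was left out (3.32% to 9.31%), and without NP replicates 1 and 2 there was 1 in each direction (6.35% higher, 7.47% lower). By median scaling the median log2 fold change was -0.0608 over all members, -0.0692 for the structural beta subunits and -0.0710 for the cap ATPases, against -0.04 over all genes. On the first slide alone it was 0.103 for the other cap subunits and -0.0021 for the activators, and on the second -0.148 for the activators, 0.0971 for the immunoproteasome subunits (0.0366 without NP replicates 1 and 2) and 0.0867 for the assembly factors. Of the 27 alternatives, 19 were run for the pair differences. Over these the change of Psmb8 minus Psmb5 lay between 0.34 and 0.53, but its exact p was no longer under 0.05 by quantile normalization (0.46, p = 0.0556), with the slide as a block (0.412, p = 0.05), on each slide alone (0.44 and 0.37, too few arrays to reach 0.05) without NP replicates 1 and 2 (0.44, p = 0.0857) and in 8 of the 9 fits that left out 1 array (p up to 0.0893). Psmb10 minus Psmb7 turned to 0.13 on the second slide. Of all 48 members, 25 turned sign under at least 1 alternative and 22 differed in sign between the slides. Among the 16 members named by the rule the sign turned in 6: Psmb10 (0.0971 on the second slide, 0.0366 without NP replicates 1 and 2), Psmb7 (-0.0331) and Psme2 (0.0706) on the second slide, Psmb6 by median scaling (-0.0175) and without NP replicate 2 (-0.00268 to 0.0734 over the arrays left out), Psmf1 with the mean of its probes (0.12), on the first slide (0.0380) and when NP replicate 1, NP replicate 3 or MSC replicate 4 was left out (-0.120 to 0.0582 over the arrays left out), and Psmc3ip by array weights (-0.0283), on the first slide (-0.0158) and when MSC replicate 4 was left out (-0.00819 to 0.102 over the arrays left out). The cause was not tested. The labels do not say whether the same replicate number pairs an NP and an MSC sample. For replicates 1 to 4 the correlations of their deviations over all genes were 0.20, 0.33, -0.35 and 0.05. These cannot settle pairing, since in replicate 3 alone the 2 samples lay on different slides. With the replicate block 2 members were higher at an unadjusted p under 0.05 (6.28% of all genes).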
